A study of Mus musculus with 42 samples.

Results

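The messages described here encode 7 proteins that read sequence in the 3′UTRs of other messages: Elavl1 (HuR), Zfp36 (tristetraprolin), its relatives Zfp36l1 and Zfp36l2, Khsrp, Celf1 and Pum2. They were taken by gene symbol from the RNA-seq table and, in 3′READS, by the poly(A) sites (PASs) inside each gene's mm9 span or up to 4 kb downstream on the same strand and before the next gene. This gave 7 of 13391 genes with a PAS and 66 of 61464 PASs assigned to genes. 3′READS counts reads that end at the poly(A) tail, so that 1 read stands for 1 transcript end. Reads scaled to 1000000 library reads (RPM) thus need no length correction. RPM of different genes need not be on the same scale, however, as the RNA-seq reads of Zfp36l2 show below. The gene sums were 124313 reads for Elavl1, 25859 for Celf1, 20133 for Zfp36, 11711 for Pum2, 9331 for Khsrp, 3073 for Zfp36l1 and 449 for Zfp36l2 over the 38 3′READS libraries.

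The study asked how arsenite, an oxidative stressor, alters the use and the fate of 3′UTR isoforms. NIH3T3 cells, a mouse fibroblast line, were left untreated (NT) or received 250 µM sodium arsenite for 1 h (AS) and were taken at once (0 h) or after 4, 8, 12 or 24 h of recovery in normal medium. Total RNA had 3 libraries each for NT and AS 0 h, numbered 1, 2 and 4, and 1 library for each later time. For RNA metabolism, cells spent the last 1 h in 50 µM 4-thiouridine (4sU), and labelled RNA (4sU) was separated from the unlabelled flow-through (Ft), with 1 library for each fraction of NT 0 h, AS 0 h, NT 4 h and AS 4 h. TIA1-bound RNA was immunoprecipitated from cytoplasm of NT and AS cells, 2 libraries each, beside 2 input libraries each. C2C12 cells, a mouse myoblast line, were used proliferating (C2C12P, myoblasts or MB) and differentiated (C2C12D, myotubes or MT), as total RNA of untreated cells with 2 libraries per state and as cytoplasmic RNA of NT 0 h, AS 0 h, NT 4 h and AS 4 h with 1 library per state. Poly(A)+ RNA-seq had 1 library for each of NT 0 h, AS 0 h, NT 4 h and AS 4 h of NIH3T3. All cells carry the strain label C57BL/6, and the labels name no altered gene. In bulk RNA, fewer cells that express a gene and less RNA per cell cannot be told apart, and nothing in the labels says whether replicates were separate cultures, so the tests measure the spread between these libraries.

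Libraries held 1048335 to 6974664 assigned 3′READS reads and 17137579 to 25194062 RNA-seq reads, and sites under 5 reads were not listed, so that 0 RPM means fewer than 5 reads at each site. The numbered sets of NIH3T3 total RNA stood far apart, with correlations of log2 values between replicates of 0.850 to 0.907, whereas C2C12 total replicates correlated at 0.987 and 0.988. Myotube markers summed to 12723 to 24046 RPM in C2C12D libraries, 76.7 to 263 in C2C12P libraries and at most 21.4 in NIH3T3 libraries. Epithelial markers and the blood markers Ptprc and Hba-a1 were at 0 in all of them. The other blood markers, Cd68 and Lyz2, summed to at most 29.9 RPM. Fibroblast markers summed to 1428 to 6815 RPM in NIH3T3 libraries, 260 to 2295 in C2C12P and 3299 to 13731 in C2C12D.

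AU-rich elements (AREs) are 3′UTR stretches with copies of AUUUA that mark short-lived messages such as those of immediate early genes and cytokines. The Zfp36 family binds UAUUUAU through paired zinc fingers and recruits the CCR4-NOT deadenylase, Khsrp binds AREs through KH domains and promotes decay, and Elavl1 binds U-rich stretches and generally protects its targets. Celf1 prefers GU-rich elements and Pum2 the 8-base Pumilio element, and both are counted here as 3′UTR readers of the same kind of decay pathway rather than as strict ARE binders. Several of these proteins are known to bind their own messages, and the p38 and MK2 kinases act on Zfp36 protein and its transcription during stress.

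The last 30 bases before main cleavage sites, from the mm9 genome, show what marks the 3′ ends that were counted. The distal Elavl1 site, with 2.21% of that gene's reads, is added. The hexamer AATAAA or ATTAAA is in capitals where one was found.
Elavl1 proximal, chr8:4288343-4288372, minus strand: gaccATTAAAtttgattttgttttgctcga
Elavl1 distal, chr8:4285382-4285411, minus strand: ctgacattgctgtccaaagtcaacAATAAA
Zfp36, chr7:29161806-29161835, minus strand: ggaatttttaAATAAAatcttgagtgtgaa
Zfp36l1, chr12:81208741-81208770, minus strand: aaaaatcAATAAAccccgtttttcaagaaa
Khsrp, chr17:57160474-57160503, minus strand: taacttcacaAATAAAtggtatcaaaaacc
Celf1, chr2:90859625-90859654, plus strand: tttatttgctATTAAActgtttgagaagaa
Pum2 distal, chr12:8759338-8759367, plus strand: acctggtcttgtgtttttctctagataaaa
Pum2 proximal, chr12:8758243-8758272, plus strand: aaatcgtttttaatcctttgcctatgaaaa
AATAAA stood in 33.7% and either hexamer in 46.5% of the same windows at 43740 PASs of last exons or downstream. The Pum2 windows above and that of the main Zfp36l2 PAS held neither hexamer. Another Pum2 PAS, at 8759338 with 18.9% of its reads, had AATAAA at its end, at the upstream edge of the distal window above. The Pum2 PAS at 8758332, with 7.56% of its reads, held neither.

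Elements of the kind these proteins read were present in several of their own 3′UTRs. Windows of 30 bases with most copies of ATTTA, in capitals, are shown for the Zfp36 family, Celf1 and the long Elavl1 isoform, whose levels and stability are described below.
Zfp36, chr7:29161982-29162011, minus strand: tgggccctttATTTAtgacgactttATTTA
Zfp36l1, chr12:81209421-81209450, minus strand: aagcttATTTAacttatcaaaacgtATTTA
Zfp36l2, chr17:84584266-84584295, minus strand: ctcaatatgaaaaactATTTAacttATTTA
Celf1, chr2:90854728-90854757, plus strand: caggctccatatggATTTAgtgttcATTTA
Elavl1 long isoform only, chr8:4285778-4285807, minus strand: attATTTATTTATTTATTTAtttttATTTA
The 771 nt Zfp36 3′UTR held 3 copies of TATTTAT, and 0.868% of 1497 3′UTRs of like length (within 20%) held as many. Zfp36l1 (1835 nt) held 3 copies, as did 3.86% of 1346 3′UTRs of like length or more, and Zfp36l2 (950 nt) held 2, with 5.2% of 1538 at that number or above. The 1257 nt Elavl1 3′UTR had no TATTTAT but 66 overlapping TTTT, against a median of 16 in 1567 like-length 3′UTRs. The 2961 nt that only the long Elavl1 isoform carries held 14 ATTTA and 8 TATTTAT, whereas 0.432% of 695 such alternative stretches of like length held as many TATTTAT. Motifs were searched on the transcribed strand, overlaps counted, and TATTTAT copies also count as ATTTA. Khsrp (1642 nt) held 1 ATTTA and 67 TTTT. Celf1 and Pum2 held 10 ATTTA each, more than the 3 each of Zfp36 and Zfp36l2 and the 9 of Zfp36l1, with 1 TATTTAT each, and 58.6% of 203 and 12.3% of 975 like-length 3′UTRs held as many ATTTA.

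Pum2 held its own element, TGTANATA, in 2 places, both in the part that its short and long isoforms share.
Pum2, chr12:8756960-8756989, plus strand: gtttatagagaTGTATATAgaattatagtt
Pum2, chr12:8757213-8757242, plus strand: atgtacagaatTGTATATActtataattgt
Capitals mark the element. It was found at least 2 times in 15.2% of 975 3′UTRs of like length and in none of the main 3′UTRs of the other 6 members. Celf1, with a 6132 nt 3′UTR, held 1 copy of the GU-rich TGTTTGTTT, which 38.4% of 203 like-length 3′UTRs also held. These are matches of letters and not measured binding.

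Zfp36 had the largest ratio of AS to NT at 0 h, in either direction, among the members listed in both libraries of a pair. In the replicate sets of NIH3T3 total RNA it stood at 190, 61.8 and 18.8 RPM in NT and 418, 224 and 82.3 RPM in AS 0 h. Each AS library was above the NT library of its number, by 2.21-, 3.62- and 4.39-fold, although the 2 groups overlapped because the sets differed more from each other than NT from AS. Without pairing, edgeR's quasi-likelihood test gave a log2 change of 1.45 ± 0.92 (SE, n = 3 each, adjusted p = 1). It called 0 of 9044 genes, 0.0%, with 19 at an unadjusted p under 0.05, and DESeq2 also called 0. NT and AS libraries of the same number deviated together (r = 0.933, 0.922 and 0.913), and with the replicate number as a block Zfp36 rose by 1.64 on the log2 scale (adjusted p = 0.0496) among 10 genes called, 0.103% of 9735, all higher.

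Labelled and unlabelled RNA both carried the difference. In 4sU RNA, Zfp36 was at 119 RPM in NT 0 h and 1043 in AS 0 h, an 8.74-fold ratio (95% counting interval 7.75 to 9.90), and in Ft RNA at 27.3 and 254 RPM, 9.31-fold (7.37 to 11.9). At 4 h the values were 135 and 247 RPM in 4sU and 36.5 and 98.5 in Ft, so the ratios had come down to 1.83 and 2.70. In the cytoplasmic input, the NT libraries held 70.6 and 80.4 RPM and the AS libraries 270 and 255 without overlap, but the log2 change of 1.67 had an adjusted p of 1, in a comparison where edgeR called 0.0105% of 9512 genes. Over 13 matched pairs of NT and AS libraries, Zfp36 was higher with AS in 13, by 1.83- to 9.31-fold, and lay at the 90.7th percentile of all genes or above. The 4sU and Ft libraries of a condition are fractions of the same RNA sample, so these are not 13 independent comparisons. How many of all genes were higher in each pair was not counted.

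**Figure D1:**
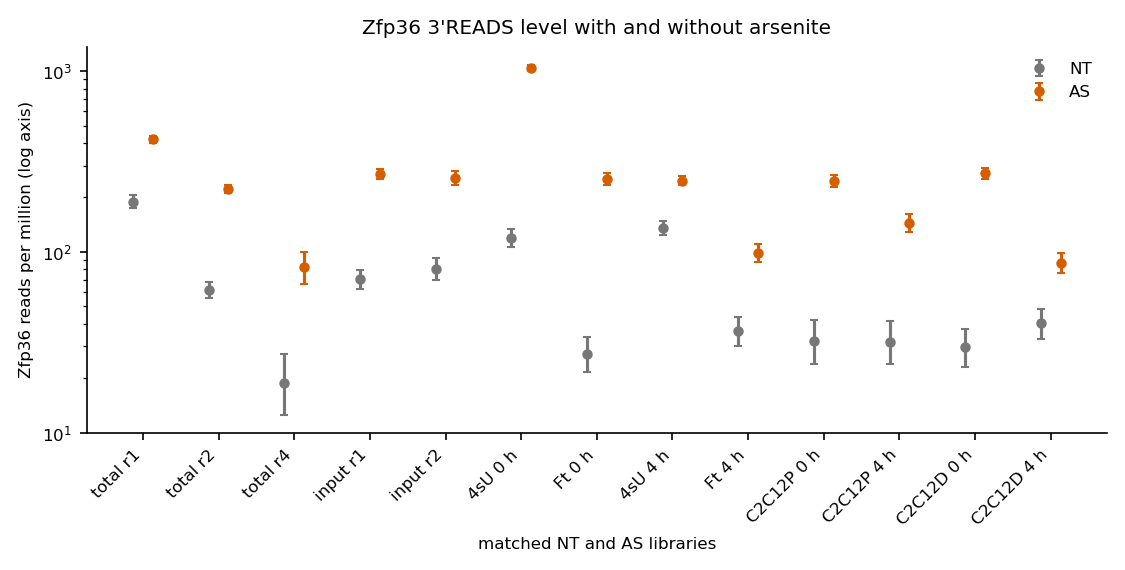
Zfp36 RPM (log axis) in 13 matched NT (grey) and AS (orange) libraries, where r gives the replicate number and the hours the recovery time. 4sU and Ft points of the same condition and time are fractions of the same RNA sample. Bars are exact Poisson 95% intervals, which cover counting error only, and each AS point lies above its NT partner, from 1.83-fold in 4sU RNA at 4 h to 9.31-fold in Ft RNA at 0 h.

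C2C12 cells gave the same direction for Zfp36 in both states. In C2C12P cytoplasm it stood at 32.1 RPM in NT 0 h, 247 in AS 0 h, 31.9 in NT 4 h and 144 in AS 4 h, and in C2C12D cytoplasm at 29.6, 272, 40.2 and 86.8. The AS and NT values did not overlap at either time. With the 2 states as the samples of a condition, Zfp36 rose by 3.05 ± 0.32 on the log2 scale at 0 h (adjusted p = 0.00257) and by 1.88 ± 0.31 at 4 h (adjusted p = 0.00622). These were the only members called, where 0.276% of 9424 genes were called at 0 h and 5.24% at 4 h (2.78% higher and 2.46% lower). The call at 0 h was lost when C2C12P NT 0 h (adjusted p = 0.0597), C2C12D NT 0 h (0.0820) or C2C12D AS 0 h (0.0535) was left out, and that at 4 h without C2C12P NT 4 h (0.105) or C2C12P AS 4 h (0.0571), with log2 changes of 1.32 or more throughout. Elavl1 had a log2 change of 0.81 at 4 h (adjusted p = 0.0910), which DESeq2 called (adjusted p = 0.0125) among 6.06% of genes, 3.49% higher.

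The other members showed smaller or mixed differences just after arsenite. Elavl1, with the most 3′READS reads, ranged in total RNA from 152 to 1190 RPM in NT and from 77.0 to 1432 in AS 0 h, with AS lower in sets 1 and 2 and higher in set 4. Pum2 stood at 79.7 RPM in NT and 24.6 in AS 0 h of set 4, a ratio of 0.309 (0.198 to 0.467), but at 24.2 and 30.8 RPM in set 2, a ratio of 1.27 (1.03 to 1.58). It was lower in both C2C12 states, at 0.694 (0.535 to 0.900) and 0.576 (0.460 to 0.721) of NT 0 h, without a call (adjusted p = 0.544). Khsrp, Celf1 and Zfp36l1 had fitted log2 changes of 0.25 ± 0.64, -0.26 ± 0.73 and 0.11 ± 1.76 in total RNA, all with an adjusted p of 1 by edgeR. Zfp36l2 was listed in none of the 10 total RNA libraries of NIH3T3 and was not tested there.

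In the single recovery series of set 4, Zfp36 was at 0.973 of its NT level (0.559 to 1.70) by 8 h. It stood at 18.8 RPM in NT, 82.3 at 0 h, 38.7 at 4 h, 18.2 at 8 h, 19.2 at 12 h and 19.1 at 24 h. Zfp36l1 was low later and for longer, at 66.3 RPM in NT, 67.0 at 0 h, 27.6 at 4 h, then 33.4, 35.1 and 45.8 at 8, 12 and 24 h. The interval of its ratio to NT lay below 1 at each of the last 4 times, with 0.416 (0.291 to 0.588) at 4 h and 0.691 (0.479 to 0.984) at 24 h. Khsrp was at 38.8 RPM in NT and 19.6 at 4 h, a ratio of 0.505 (0.325 to 0.776), and at 57.2 RPM at 24 h. Celf1 moved between 142 and 214 RPM and Elavl1 between 1132 and 1432. The median gene had a log2 ratio of -0.25 at 4 h, and with 1 library per time there is no replicate check.

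**Figure D2:**
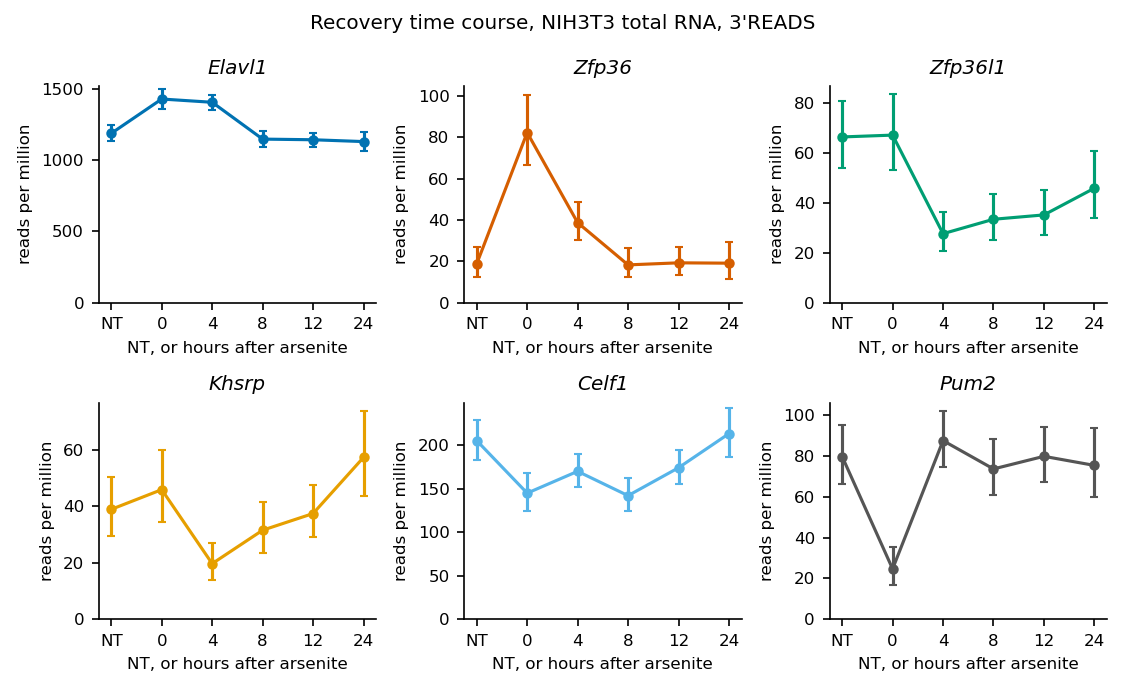
RPM of 6 members in NT and 0, 4, 8, 12 and 24 h after arsenite in NIH3T3 total RNA, set 4, with 1 library per point, exact Poisson 95% intervals and evenly spaced times. Zfp36 goes from 18.8 to 82.3 at 0 h and is near 19 from 8 h on, Zfp36l1 is lowest at 4 h (27.6), and Pum2 is lowest at 0 h (24.6).

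RNA-seq, counted by the authors over coding sequence, had enough reads for Zfp36l2 as well. At 0 h, scaled by median ratio, Zfp36 had 3.36 times its NT value (95% counting interval 2.94 to 3.84, from 284 and 1109 reads) and lay at the 99.3rd percentile of 10829 genes. Zfp36l2 had 0.514 of its NT value (0.487 to 0.542, from 3614 and 2160 reads), at the 1.56th percentile. Its scaled reads were 3414 in NT 0 h, 1755 in AS 0 h and 2451 in NT 4 h. The untreated libraries thus also differed from each other, which the counting interval does not cover. In 3′READS, Zfp36l2 pointed the same way, at 29.0 and 8.8 RPM in 4sU RNA of NT 0 h and AS 0 h and 11.2 and 5.3 RPM in Ft RNA. The reason for its low 3′READS count beside 1765 to 3614 RNA-seq reads was not tested. In NT 0 h, Elavl1 had 2038 RNA-seq reads beside the 3614 of Zfp36l2, so 3′READS and RNA-seq ranked these genes differently. Zfp36 and Zfp36l2 were the members past 1.5-fold at 0 h, 2 of 7, where 15.0% of all genes were. The other 5 lay between 0.770 (Zfp36l1) and 1.23 (Elavl1).

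At 4 h the RNA-seq picture depended on the scaling. With the median ratio, Elavl1 (2.03-fold), Celf1 (2.03), Zfp36 (1.92) and Pum2 (1.60) were past 1.5-fold, all higher, among 52.3% of all genes past that fold. The 100 most abundant genes held 41.3% of reads in AS 4 h and 23.6% in NT 4 h. Scaled by library total, the median gene moved by -0.81 (log2) and so was itself lower past the fold. Then 0 members were higher and 3 lower past the fold, Zfp36l2 (-0.96), Khsrp (-0.94) and Zfp36l1 (-0.83), while Pum2 turned from 0.68 to -0.13. The share of all genes past the fold was not counted under this scaling. With the median ratio, Zfp36l2 had 0.898, Khsrp 0.910 and Zfp36l1 0.981 (0.865 to 1.11) of the NT 4 h value, whereas the 3′READS recovery series had Zfp36l1 lower at 4 h. Relative to the median gene, Elavl1 and Celf1 stood at the 84.9th percentile, Zfp36 at the 83.4th, Zfp36l1 at the 49.1st, Khsrp at the 44.0th and Zfp36l2 at the 43.2nd.

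Before any adjustment for the number of Us, Zfp36l1, Pum2 and Zfp36 had the lowest ratios of Ft to 4sU among these messages. Ft RNA is enriched for RNA made before the labelling hour, and the ratio of Ft to 4sU is used by the study as a measure of stability. It is limited where a message is newly made, since Zfp36 was 9.31-fold higher in Ft at AS 0 h although the label was present throughout arsenite. Zfp36l1 was at 147, 103, 175 and 97.9 RPM in 4sU RNA of NT 0 h, AS 0 h, NT 4 h and AS 4 h, and at 19.1, 18.5, 35.9 and 24.1 RPM in Ft RNA, with no overlap. Pum2 was at 255, 218, 350.2 and 392 RPM in 4sU and at 62.7, 54.9, 73.6 and 89.4 RPM in Ft. Elavl1, in contrast, held more in Ft than in 4sU in each pair, at 744, 1043, 899 and 1194 RPM against 632, 962, 796 and 979.

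With the source sample as a block (4 pairs), 5 of 7 members were called lower in Ft than in 4sU, where 26.6% of 10051 genes were called lower and 50.1% in either direction. The log2 differences were -2.28 ± 0.20 for Zfp36l1 (adjusted p = 1.53e-05), -1.96 ± 0.15 for Pum2 (8.58e-06), -1.71 ± 0.20 for Zfp36 (4.83e-05), -0.92 ± 0.15 for Celf1 (0.000366) and -0.79 ± 0.28 for Zfp36l2 (0.0336). Elavl1 (0.34 ± 0.15, adjusted p = 0.0887) and Khsrp (-0.04 ± 0.17, adjusted p = 0.864) were not called. The Zfp36l2 call was lost without the NT 0 h (adjusted p = 0.197), AS 0 h (0.0579) or NT 4 h pair (0.127), and that of Zfp36 without the block (0.149). For Zfp36 in AS 0 h, the ratio of Ft to 4sU was 0.243 (0.223 to 0.265), beside 0.228 (0.176 to 0.293) in NT 0 h.

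Capture of 4sU RNA favours messages with many Us, and across 11595 to 12715 isoforms the log2 ratio of Ft to 4sU had a slope of -0.62 to -0.57 per doubling of the number of Us (r = -0.58 to -0.54), which was taken out of each isoform's ratio. Adjusted, the 771 nt Zfp36 isoform had -2.11 in NT 0 h, -2.18 in AS 0 h, -1.87 in NT 4 h and -1.39 in AS 4 h, at the 1.37th, 1.03rd, 2.34th and 6.61st percentile of isoforms. The value in AS 4 h lay above the other 3, and its interval (-1.59 to -1.20) met that of NT 4 h (-2.17 to -1.59) at its edge. Zfp36l1 went from -2.48 (-2.91 to -2.07) in NT 0 h and -1.76 (-2.05 to -1.47) in NT 4 h to -2.12 and -1.48 with AS, within overlapping intervals. Celf1 with its 2284 Us had -0.82 and -0.85 in NT before the adjustment, relative to the mean isoform, and 0.24 and 0.32 after it, so that its place rests on the correction. Pum2 also moved with it, from -1.60, -1.49, -1.81 and -1.29 to -0.90, -0.78, -1.04 and -0.52 for the 1746 nt isoform and from -1.54, -1.81, -1.68 and -2.13 to -0.65, -0.91, -0.71 and -1.16 for the 2841 nt isoform, in NT 0 h, AS 0 h, NT 4 h and AS 4 h. Khsrp had 0.76, 0.42, 0.46 and -0.16 in the same order, and its AS 4 h interval (-0.36 to 0.04) lay below those of the other 3.

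Within Elavl1, the 2 isoforms lay on opposite sides. The message ending at the proximal PAS (1257 nt) had adjusted values of 0.73 in NT 0 h, 0.41 in AS 0 h, 0.70 in NT 4 h and 0.88 in AS 4 h. The one ending at the distal PAS (4218 nt), with the ATTTA-rich stretch printed above, had -1.63, -1.57, -2.33 and -1.10. No interval of one isoform met one of the other. Without the U adjustment the values were 0.63, 0.30, 0.59 and 0.76 for the short and -2.44, -2.39, -3.21 and -1.99 for the long isoform.

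**Figure D3:**
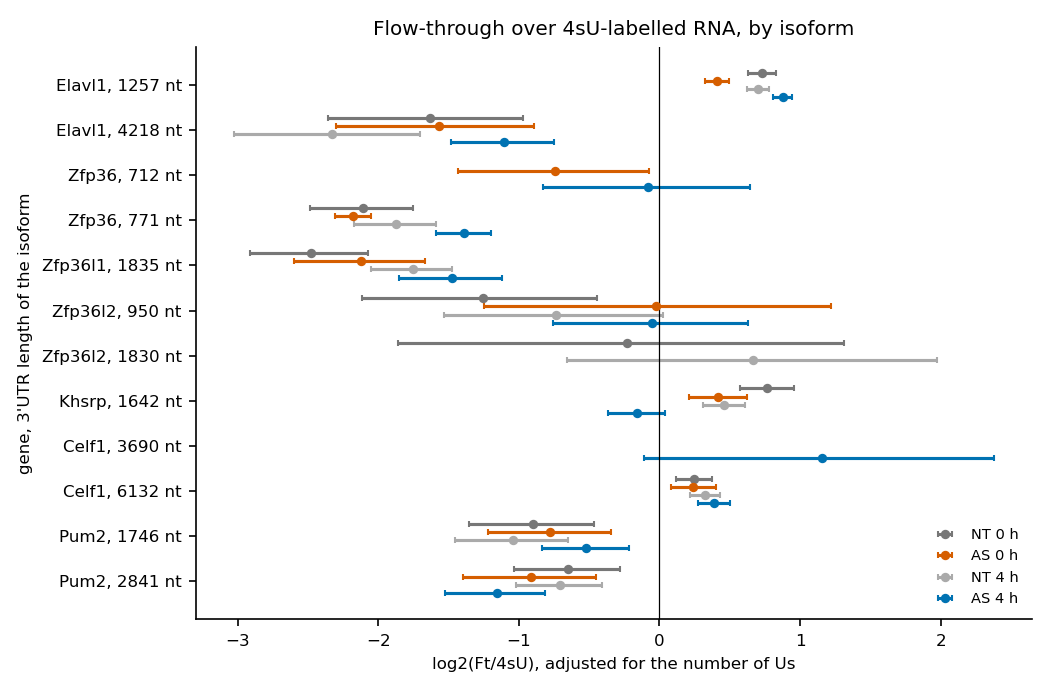
Log2 ratio of Ft to 4sU RPM, adjusted for the number of Us, for each isoform with reads in both fractions, where 0 is the fitted value of an isoform with the same number of Us. Colours are the 4 conditions and bars 95% intervals from exact binomial limits (counting error only). The short Elavl1 isoform lies at 0.41 to 0.88 and the long one at -2.33 to -1.10, and Zfp36 (771 nt) and Zfp36l1 lie at -1.39 or below.

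The same split stood in the shares. The distal PAS took 8.19% (6.91 to 9.70, Wilson 95%), 5.09%, 9.67% and 12.3% of reads at the Elavl1 pair in 4sU RNA of NT 0 h, AS 0 h, NT 4 h and AS 4 h, and 1.05%, 0.83%, 0.77% and 2.06% in Ft RNA. The 2 fractions did not overlap. Distal over proximal use was lower in Ft by -3.05 ± 0.21 (log2, 4 pairs, edgeR, adjusted p = 3.02e-11), where 28.3% of 2329 gene pairs were called lower and 29.9% in either direction. For Pum2, whose pair is 1095 nt apart, the difference was -0.25 ± 0.23 (adjusted p = 0.455).

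Differentiation of C2C12 also separated the Elavl1 isoforms. The distal share was 4.80% and 5.98% in C2C12D total RNA and 1.42% and 1.98% in C2C12P, with no overlap. Distal over proximal use rose by 1.71 ± 0.23 (log2, n = 2 each, adjusted p = 1.16e-06), where 11.6% of 3081 pairs were called higher, 4.87% lower and 16.4% in either direction. Pum2 had 71.4% and 70.4% distal reads in C2C12D and 57.1% and 61.7% in C2C12P, a change of 0.72 ± 0.26 (adjusted p = 0.0519). In cytoplasmic RNA, the Elavl1 share was 2.74% and 1.84% in C2C12D and 1.19% and 1.90% in C2C12P at NT 0 h and NT 4 h, so that the 4 h values overlapped.

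Pum2 had a shorter mix after recovery in some libraries. In C2C12D cytoplasm its distal share was 81.7% (74.8 to 87.0) in NT 4 h and 46.8% (39.2 to 54.6) in AS 4 h, and in NIH3T3 Ft RNA 62.8% (55.4 to 69.7) and 40.6% (33.9 to 47.8). In C2C12P it was 57.1% and 60.4%, with overlapping intervals. Before recovery, Ft RNA held 58 proximal and 81 distal reads in NT 0 h, and 63 and 51 in AS 0 h. In 4sU RNA, proximal and distal reads were 180 and 241 in NT 0 h and 160 and 162 in AS 0 h. At 4 h they were 320 and 493 in NT and 470 and 576 in AS. The change over both C2C12 states was -1.22 ± 0.50 (log2, adjusted p = 0.134), in a comparison where 8.44% of 1742 pairs were called lower and 8.61% in either direction. A cut at 20 reads per isoform gave -1.23 with an adjusted p of 0.0397. With both proximal PASs set against both distal PASs, a grouping chosen after the data were seen, the C2C12D shares were 81.2% and 49.2%, the Ft shares 70.9% and 51.3% and the C2C12P shares 73.0% and 64.0%. In total RNA of NIH3T3 the distal share was 84.3% to 88.7% in sets 1 and 2 and 33.3% to 48.2% in the 6 libraries of set 4, so the set moved it more than arsenite did, and the Pum2 change of 0.15 had an adjusted p of 1, with 0 of 1608 pairs called (0.0%, 0 at an unadjusted p under 0.05, and 0 by DESeq2).

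**Figure D4:**
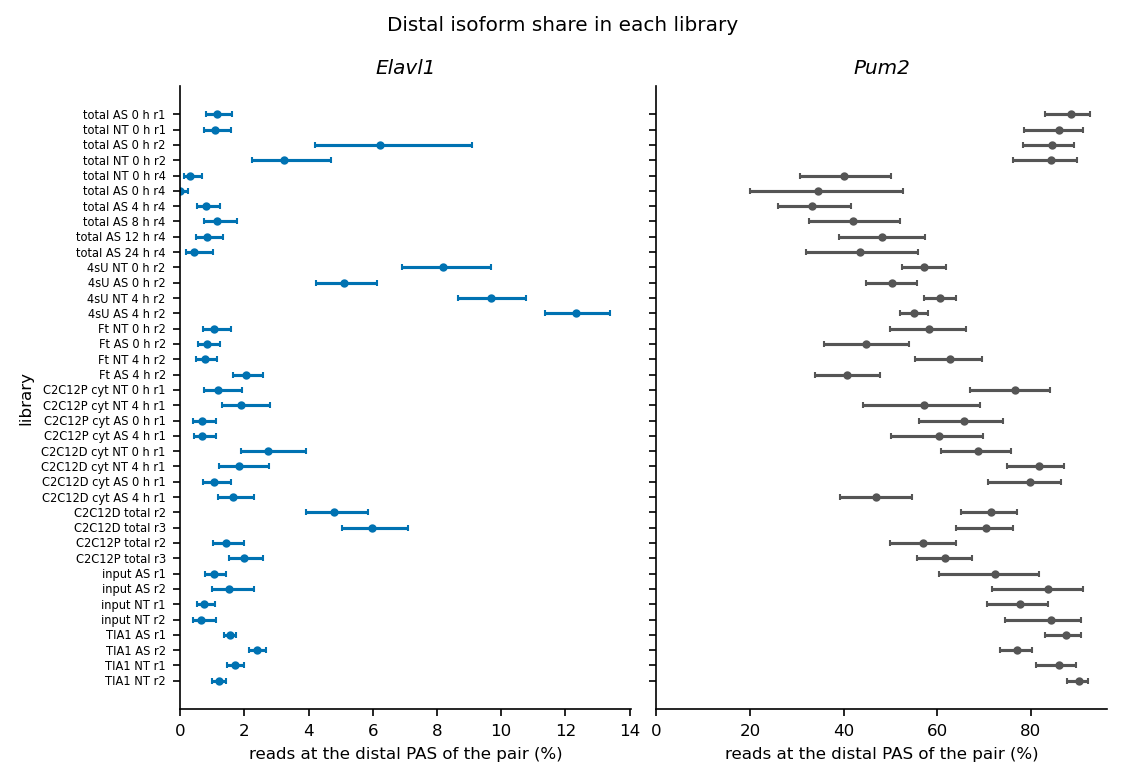
Share of reads at the distal PAS of the pair, with Wilson 95% intervals (counting error only), for Elavl1 and Pum2 in each of the 38 libraries, cyt for cytoplasmic and r for the replicate number. Elavl1 reaches 5.09% to 12.3% in 4sU RNA and stays at 2.06% or below in Ft RNA, and Pum2 lies at 33.3% to 48.2% in the 6 libraries of total RNA replicate 4.

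Zfp36, Zfp36l1, Khsrp and Celf1 put nearly all reads on 1 PAS. The main site took 99.6% of Khsrp, 98.2% of Celf1, 97.8% of Zfp36l1 and 97.3% of Zfp36 reads over all libraries. A second Zfp36 PAS 59 nt upstream took 2.55% and was listed with 7 to 44 reads in each AS 0 h library of total, 4sU, Ft and cytoplasmic RNA, where the main site had 85 to 2215. It was not listed in most NT libraries, which had 28 to 388 reads at the main site where it was missing. Zfp36l2 had 69.9% of its 449 reads at the 950 nt site and 11.4% at the 1830 nt site.

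Levels of the members also differed between the C2C12 states. In total RNA, Khsrp stood at 155 and 203 RPM in C2C12P and 75.5 and 92.8 in C2C12D, and it fell by 0.93 on the log2 scale (SE 0.14, n = 2 each, adjusted p = 3.05e-05). Elavl1 fell from 765 and 720.2 to 515 and 494 RPM, a log2 change of -0.40 ± 0.09 (adjusted p = 0.00133). Zfp36l1 rose from 2.8 and 1.5 RPM to 8.6 and 11.5, a log2 change of 2.43 ± 0.42 (adjusted p = 0.000133). Zfp36 fell from 22.2 and 21.0 to 12.7 and 9.9 RPM (-0.77 ± 0.23, adjusted p = 0.00837), a call that DESeq2 did not make (adjusted p = 0.125) and that was lost without C2C12D replicate 3 (0.0807). The groups of these 4 did not overlap, and 61.7% of 10024 genes were called in this comparison, 32.2% higher and 29.5% lower. Celf1 (-0.16, adjusted p = 0.186) and Pum2 (-0.00, adjusted p = 0.976) were not called. Myotube markers moved with this comparison as given above, and their part in these differences was not tested.

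The cytoplasmic libraries of C2C12, over 4 matched conditions, repeated the higher Zfp36l1 level. It was at 25.3, 18.8, 19.9 and 17.4 RPM in C2C12D and at 0, 3.1, 0 and 0 in C2C12P in NT 0 h, AS 0 h, NT 4 h and AS 4 h, a log2 change of 4.54 ± 0.74 (adjusted p = 0.000727, with 35.6% of 9424 genes called). The size of this change rests on C2C12P counts at the listing floor, and it ran from 4.08 to 8.60 with 1 library left out. Elavl1 was lower by -0.62 ± 0.18 (adjusted p = 0.0178), a call lost without either NT 0 h or either NT 4 h library (0.0839 to 0.124). Khsrp had -0.56 ± 0.23 (adjusted p = 0.0787).

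The messages of Elavl1, Pum2, Celf1, Khsrp and Zfp36 were higher in the TIA1 precipitate than in input in all 4 matched pairs. Their lowest percentile among all genes in these pairs was 73.6 for Elavl1, 71.0 for Celf1, 69.9 for Pum2, 62.9 for Khsrp and 48.8 for Zfp36. The share of all genes higher in all 4 pairs was not counted. For Elavl1, Pum2 and Celf1, whether a test was passed depended on the block, the tool or the low-count filter. Input and precipitate of a number and condition came from the same lysate, which the unpaired fit leaves out. The block held the replicate number across NT and AS together, so it did not pair by lysate. TIA1, a U-rich element binder of stress granules, was precipitated from cytoplasm, and no control precipitate was analysed here. Elavl1 was at 1032 and 870 RPM in input and 2849 and 1659 in TIA1 in NT, and at 1148 and 745 in input and 4087 and 2728 in TIA1 in AS. Input and TIA1 did not overlap in either condition. The log2 differences were 1.09 ± 0.42 in NT (n = 2 each, adjusted p = 0.170) and 1.72 ± 0.42 in AS (adjusted p = 0.0694), where edgeR called 3.12% (1.68% higher and 1.44% lower) and 0.557% of 9512 genes. With the replicate number as a block Elavl1 was called in NT (1.06, adjusted p = 0.0129) and in AS (1.74, adjusted p = 0.00221), where 18.5% (9.18% higher) and 16.9% (9.57% higher) of genes were. DESeq2 without the block called Elavl1 in AS (adjusted p = 0.00165), with 13.2% (6.48% higher) of genes called in NT and 11.4% (5.2% higher) in AS.

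Pum2 was at 59.0 and 40.8 RPM in input and 110 and 129 in TIA1 in NT, and at 25.8 and 40.9 in input and 110.2 and 165 in TIA1 in AS. Its log2 differences were 1.13 ± 0.43 (adjusted p = 0.170) and 1.94 ± 0.44 (adjusted p = 0.0624), and it was called in AS with the block (1.94, adjusted p = 0.00579) and by DESeq2 (adjusted p = 0.00263), but in NT its blocked adjusted p was 0.0554. Celf1 had 49.7 and 53.5 RPM in input and 144 and 113 in TIA1 in NT, with differences of 1.18 ± 0.40 in NT and 1.08 ± 0.40 in AS (adjusted p = 0.132 and 0.174). The block called Celf1 in both (adjusted p = 0.0286 and 0.0478), and DESeq2 in NT (adjusted p = 0.0472). Khsrp had 0.93 ± 0.47 and 0.91 ± 0.47, without a call with the block (adjusted p = 0.125 and 0.111). The groups of these genes did not overlap in either condition.

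Zfp36 had TIA1 replicates far apart in NT. Its TIA1 libraries held 91.8 and 403 RPM against 70.6 and 80.4 in input, that is 1.30- and 5.01-fold, and in AS 317 and 374 RPM against 270 and 255. The log2 difference was 1.63 ± 0.63 in NT (adjusted p = 0.173, 0.0712 with the block, and 0.0497 with 2.36 without TIA1 NT replicate 1) and 0.28 ± 0.61 in AS (adjusted p = 0.859). Zfp36l1, at 2.2 and 2.4 RPM in NT input and 14.1 and 14.8 in TIA1, was too low for a firm value (2.51 ± 1.42, adjusted p = 0.335). Zfp36l2 was at 0 in the 4 input libraries and at 4.1, 1.1, 0 and 9.5 RPM in TIA1, so no fold is given. The median log2 difference of the other 6 members, Zfp36l1 included, was 1.15 in NT and 1.40 in AS, beside 0.09 and 0.16 over all genes tested. Related gene lists also had medians above those of all genes. They were 1.13 and 0.64 for p38 and MK2 signalling and 14-3-3 proteins, and 0.89 and 0.69 for deadenylation and decapping. Other binders of AREs, U-rich or GU-rich elements had 0.21 and 0.29, and messages with AREs 0.20 and 0.27.

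**Figure D5:**
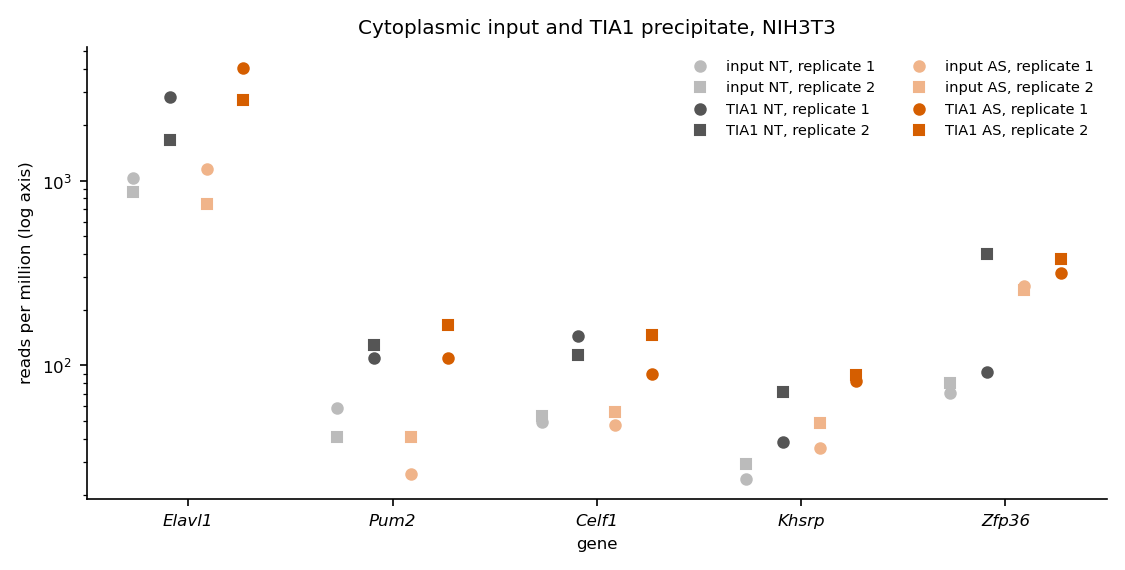
RPM (log axis) of 5 members in cytoplasmic input (light) and TIA1 precipitate (dark) of NT (grey) and AS (orange) cells, with circles for replicate 1 and squares for replicate 2. The TIA1 points lie above the input points of their condition for Elavl1, Pum2, Celf1 and Khsrp, and for Zfp36 the NT precipitates lie apart at 91.8 and 403.

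The difference of TIA1 enrichment between AS and NT was not called for any member. It was 0.63 ± 0.58 for Elavl1, 0.82 ± 0.61 for Pum2 and -1.35 ± 0.87 for Zfp36, all with an adjusted p of 1, in a test that called 0 of 9512 genes (0.0%, 213 at an unadjusted p under 0.05, 5 by DESeq2, and 0 with the block). By isoform, the Elavl1 distal share was 0.75% and 0.66% in NT input and 1.71% and 1.20% in NT TIA1, and 1.04% and 1.51% in AS input and 1.55% and 2.39% in AS TIA1. TIA1 libraries thus lay above input in both conditions without overlap, with log2 differences of 1.02 ± 0.61 in NT (adjusted p = 0.599) and 0.64 ± 0.48 in AS (adjusted p = 0.720). Pum2 had 0.83 and 0.42, Celf1 1.51 in AS (adjusted p = 0.520) and Zfp36 -0.32 in AS. EdgeR called 0 of 1742 pairs in NT and 0 of 1903 in AS (0.0%), with 192 and 201 at an unadjusted p under 0.05, 32 and 37 by DESeq2 and 38 and 0 with the block, which called no member, and the median pair had 0.52 and 0.47.

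Other genes of the pathway give the setting. Their Ft against 4sU values were fitted per gene and not adjusted for the number of Us, on which the ratio depends as shown above. In Ft against 4sU, where 23.5% of all genes were called higher and 26.6% lower, 0 of 35 tested messages with AREs were higher and 22 lower, with a median of -0.99 beside -0.07 for all genes, among them Klf6 (-2.55), Ptgs2 (-2.39) and Lif (-2.37). Of 23 deadenylation and decapping genes, 1 was higher and 13 lower, with the anti-proliferative adaptor Tob1 at -2.29, the exonuclease Xrn1 at -1.82 and the deadenylase Cnot6l at -1.74. Of 25 other binders of AREs, U-rich or GU-rich elements, 3 were higher and 11 lower, with the CDE-binding Rc3h2 (-2.93) and Rc3h1 (-2.52) lowest. Of 16 genes for p38 and MK2 signalling and 14-3-3 proteins, which bind phosphorylated Zfp36, 5 were higher, Ywhab (1.10) most, and 3 lower, Dusp10 (-2.02) most.

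In C2C12 cytoplasm, 6 of 27 ARE messages rose at AS 0 h and 0 fell (0.276% and 0.0% of all genes), among them Fos (5.32) and Ier2 (2.75), and at 4 h 11 rose and 2 fell (2.78% and 2.46% of all genes), Klf2 (-2.84) and Hmga2 (-1.64). Dusp1, the phosphatase of p38 whose message is itself a Zfp36 target, rose by 2.84 at 0 h and 1.79 at 4 h, the only call among 14 signalling genes at either time. At neither time did edgeR call any of the 18 other binders (2 and 5 at an unadjusted p under 0.05) or of the 21 deadenylation genes (3 and 5). In NIH3T3 total RNA 0 of 88 genes tested from these 4 lists were called, with 2 at an unadjusted p under 0.05. In total RNA of differentiated against proliferating C2C12, 4 of 19 other binders rose, Celf2 (1.31), Fxr1 (1.03) and Tia1 (0.85) most, and 11 fell, among them Fmr1 (-1.67) and Hnrnpa1 (-1.65), while 6 of 22 deadenylation genes rose and 7 fell, where 32.2% of all genes rose and 29.5% fell. In cytoplasm 2 and 8 of 18 other binders were called higher and lower, against 20.8% and 14.8% of all genes.

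In the TIA1 precipitate of NT cells, without the block, Rc3h1 (2.72) and Elavl2 (2.17) among the other binders and Cnot6 (2.48) and Cnot6l (2.44) among the deadenylation genes passed the test, with Rc3h2 listed too thinly in input for a fold, and in AS 0 of 97 genes tested from the 4 lists passed, with 21 at an unadjusted p under 0.05. In RNA-seq at AS 0 h, 15 of 33 ARE messages were past 1.5-fold higher and 0 lower, against 9.83% and 5.13% of all genes.

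Over the 10 total RNA libraries of NIH3T3, genes whose log2 levels went closely with Zfp36 among 5790 genes were Bre (r = 0.957) and Ier2 (0.954). Those for Pum2 were Hipk3 (0.952), Alg10b (0.952) and Arhgap21 (0.946). For Elavl1 the nearest was Orc5 (0.990), for Celf1 Prdx4 (0.989), for Zfp36l1 Il1rap (0.980) and for Khsrp Rad51ap1 (0.979). The 6 libraries of set 4 share a replicate number and stand apart from the rest, so these values describe the sets as much as the treatment.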

How the data were processed

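The members and the gene lists were chosen with earlier results of these data known. The authors mapped 3′READS and RNA-seq reads to mm9 (STAR, Bowtie2 and cutadapt are named in the submitters' processing notes) and deposited read counts per cleavage position and RNA-seq counts over the coding sequence of each gene. Positions under 5 reads were not listed. Here, 99725 positions within 24 nt of a neighbour were joined into 83916 PASs, of which 61464 were assigned to genes, and RPM used each library's total. Genes and PAS pairs were tested in R 4.3.3 with edgeR 4.0.16 (quasi-likelihood test, Benjamini-Hochberg adjusted p under 0.05) over all genes, with DESeq2 1.42.0 as an alternative. The C2C12 arsenite fits held cell state and condition as additive terms over the 8 cytoplasmic libraries, which assumes the same response in both states, the TIA1 fits shared 1 spread over 4 groups of 2, and Ft against 4sU had the source sample as a block. Single libraries were compared by counting intervals only, which are exact but do not cover the spread between cultures.

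NT and AS total RNA of the same replicate number deviated together over 5733 genes (r = 0.933, 0.922 and 0.913), so the blocked value stands beside Zfp36. Input and TIA1 libraries of a number and condition share a lysate per the study's methods (r = 0.554 in NT and 0.594 in AS). Blocked values stand beside the TIA1 results, with the block by replicate number over NT and AS rather than by lysate. No 2 replicates agreed within sampling noise (chi-square per degree of freedom 2.42 to 124). The text gives all 7 members, the PASs with at least 5% of a member's reads, up to 3 called genes per list with the highest and lowest change, and like genes by Pearson r of log2(RPM + 1) among genes of at least 20 RPM. Settings varied were normalisation, low-count filter, tool, PAS pair, U adjustment, block, and each library left out. Figures were drawn with matplotlib 3.10.9. The authors' own fold changes were not used. Some genes that these rules select are not reported here.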

Additional observations from a re-analysis of the deposited data

Results flagged for a closer look

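Khsrp and Celf1 differed between the C2C12 states at 4 h after arsenite. Khsrp had a log2 ratio of AS 4 h to NT 4 h of -1.06 in C2C12P cytoplasm and 0.080 in C2C12D. Celf1 had 0.20 in C2C12P and -0.54 in C2C12D. The values above 0 lay within counting error of no difference (1.06-fold, 0.756 to 1.48, for Khsrp and 1.15-fold, 0.985 to 1.34, for Celf1). In C2C12P, Celf1 stood at 287 RPM in NT 0 h, 167 in NT 4 h and 192 in AS 4 h. The direction there thus depended on which untreated library was used. In C2C12D, Celf1 stood at 231, 251 and 173 RPM in the same order. Each state and condition had 1 library, so the difference between the states was not tested.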

How the results depend on the processing

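Of the member values that did not leave out a library, 386 kept their direction and side of the threshold, 17 passed it and 3 lost it. Another 15 turned in direction, and 31 values from single libraries moved in size. Counts of called genes or pairs moved most in the TIA1 data, where DESeq2, no low-count filter and the replicate block gave 1259, 1010 and 1763 genes in NT (297) and 1082, 795 and 1609 in AS (53, and 93 with median-ratio scaling), 5 and 8 for the difference of enrichment by DESeq2 and without the filter (0), and 18, 17 and 13 for input (1). For isoform use in TIA1, NT gave 32 by DESeq2, 4 above 20 reads and 38 with the block (0), and AS 37 by DESeq2 (0). C2C12 AS 0 h gave 78 by DESeq2 and 43 with merged NT (26), and AS 4 h 823 with merged NT (494). C2C12 AS 4 h isoform use gave 71 by DESeq2 and 73 above 20 reads (150), MT against MB 146 by DESeq2 (506) and Ft against 4sU 351 above 20 reads (697), while the Ft gene count was 3132 with no replicate block (5038). The cause of these moves was not tested.

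The replicate block called 10 genes for total RNA (0 without it). In the TIA1 data it called Elavl1, Celf1 and Pum2 as given above, and DESeq2 without it also called Elavl1 and Pum2 in AS and Celf1 in NT. With neither the block nor the low-count filter, edgeR called Elavl1 (adjusted p = 0.0128) and Pum2 (0.0129) in AS and Zfp36 in NT (0.0315). The replicate block decided the call of Zfp36 in total RNA, and the source-sample block those of Zfp36 and Zfp36l2 (0.153 without it) in Ft against 4sU. Outside the TIA1 data a block decided no other call of a member.

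Leaving out 1 library gave 0 to 232 genes for TIA1 in NT, 0 to 304 in AS, 0 to 1 for input, 5 to 32 for C2C12 AS 0 h and 144 to 444 for AS 4 h, and for isoform use 252 to 443 (MT against MB), 2 to 78 (TIA1 AS) and 446 to 794 (Ft against 4sU). For isoform use in C2C12 AS 4 h, 4 such fits had no residual degrees of freedom and no value.

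Directions turned mostly for values near 0. In total RNA Elavl1 gave 0.0083 by DESeq2 and 0.0081 by median ratio, and without 1 library -0.92 to 0.52, with Zfp36l1 at -1.69 to 2.45, Khsrp at -0.32 to 0.82 and Celf1 at -0.79 to 0.60. Pum2 in MT against MB gave 0.0029 and 0.00027 by the same and -0.088 to 0.089 without 1 library. With the block, TIA1 enrichment gave -0.37 for Zfp36l2 and 0.051 for Khsrp, and input 0.031 for Zfp36l2. Merged NT gave -0.12 for Celf1 and -0.051 for Pum2 at C2C12 AS 4 h. The pair chosen within the experiment gave 0.54 for Pum2 in Ft against 4sU, and total scaling -0.13 for Pum2 in RNA-seq at 4 h. Without the U adjustment the long Celf1 isoform had -0.85, -0.78, -0.82 and -0.85 in AS 0 h, AS 4 h, NT 0 h and NT 4 h. Without 1 library, TIA1 enrichment ranged from -0.93 to 5.59 for Zfp36l1, -0.45 to 0.48 for Khsrp, -0.64 to 0.22 for Celf1, -6.14 to 1.85 for Zfp36l2 and -2.08 to 0.093 for Zfp36. The TIA1 AS value of Zfp36l2 ranged from 0.00 to 8.00 and input Elavl1 from -0.54 to 0.20. C2C12 AS 0 h gave -0.44 to 5.53 for Zfp36l1, and AS 4 h -0.38 to 0.50 for Celf1, -4.15 to 4.02 for Zfp36l1, -0.78 to 0.24 for Khsrp and -0.0098 to 0.19 for Pum2. D against P gave -0.28 to 0.018 for Celf1 and -0.29 to 0.14 for Zfp36, and Ft against 4sU -0.16 to 0.092 for Khsrp. Pum2 isoform use ranged from -0.83 to 1.18 in total RNA, -0.090 to 0.97 in TIA1 AS and -0.70 to 0.27 in input.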
